A study of Mus musculus with 12 samples.

Results

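The genes described are the subunits of AMP-activated protein kinase (AMPK) and the kinases that switch it on, measured in 3T3-L1 adipocytes treated with berberine. They are Prkaa1 and Prkaa2, Prkab1 and Prkab2, Prkag1 and Prkag2, Stk11 and Camkk2. Every probe set whose single gene symbol in the platform annotation was one of these 8 names was taken, which gave 21 of the 45037 probe sets that are no controls. A probe set is a group of short oligonucleotides on the array that together report one transcript. Of the 21, 17 reached the detection threshold, a log2 signal of 5.77, on at least 3 of 12 arrays and were tested among 25053 such probe sets; all 8 genes kept at least 1.

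RNA was hybridised to 12 arrays of 1 colour. There were 4 groups of 3 arrays, namely the solvent control DMSO and 3, 6 or 12 h of the plant alkaloid berberine at 5 µM. 3T3-L1 is a mouse fibroblast line that turns into fat cells in culture, so all groups model an adipocyte by 1 cell line. Differentiation of all cells had been started by 48 h of insulin (5 µg/ml), the glucocorticoid dexamethasone (1 µM) and the phosphodiesterase inhibitor IBMX (0.5 mM). They were used on days 8 to 10 and kept without serum, in 0.2% albumin, for 12 h beforehand. The labels give no duration for the DMSO incubation, so berberine and time in culture cannot be told apart in the contrasts with DMSO, which also share the same 3 DMSO arrays. Between berberine times, too, length of treatment and time in culture may go together. The labels do not say that the arrays of a group came from separate cultures, so the spread behind the p-values is that between the arrays of a group and may be technical.

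AMPK is the cell's sensor of low energy. It is a complex of a catalytic alpha subunit, a beta subunit that holds the complex together and binds glycogen, and a gamma subunit that binds AMP, ADP and ATP. When AMP or ADP sits on gamma, the kinase LKB1 (Stk11) can keep the activation loop of alpha phosphorylated, and a rise in calcium does the same through CAMKK2. Active AMPK slows fat and cholesterol synthesis and favours fuel oxidation. In adipocytes it is known for acting on lipid synthesis, lipolysis and glucose uptake. Berberine is known to slow mitochondrial respiration and to activate AMPK through the energy state of the cell. The arrays measure transcripts and carry no information on phosphorylation or kinase activity.

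Because the calls at 12 h fell on Prkag2, Prkag1 and Prkab1, the 250 bases before the annotated starts of these genes are printed here from RefSeq's mouse table (GRCm38.p6), 5′ to 3′ in the direction of the gene. Capitals mark GC boxes (GGGCGG) and CCAAT boxes (CCAAT), each searched on both strands. Prkag2 has 3 annotated starts. The positions of its probe sets along the transcript were not given, so no signal is assigned to a start.
Prkag2 start 1, chr5:24908510-24908759, minus strand: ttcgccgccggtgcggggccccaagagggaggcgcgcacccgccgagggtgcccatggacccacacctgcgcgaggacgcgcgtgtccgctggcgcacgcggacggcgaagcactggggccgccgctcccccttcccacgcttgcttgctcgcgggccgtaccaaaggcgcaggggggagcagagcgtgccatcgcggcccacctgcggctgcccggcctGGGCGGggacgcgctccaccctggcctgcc
Prkag2 start 2, chr5:24995754-24996003, minus strand: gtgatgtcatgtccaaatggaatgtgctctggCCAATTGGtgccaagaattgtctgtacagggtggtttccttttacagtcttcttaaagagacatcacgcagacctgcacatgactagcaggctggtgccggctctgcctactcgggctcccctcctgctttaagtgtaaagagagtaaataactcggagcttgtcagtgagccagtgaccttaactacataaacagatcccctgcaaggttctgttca
Prkag2 start 3, chr5:25100643-25100892, minus strand: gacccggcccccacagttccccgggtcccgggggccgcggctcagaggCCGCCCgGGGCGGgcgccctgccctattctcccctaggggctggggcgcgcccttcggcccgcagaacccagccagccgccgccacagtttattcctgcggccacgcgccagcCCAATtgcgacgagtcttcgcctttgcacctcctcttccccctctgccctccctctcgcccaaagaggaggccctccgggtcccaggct
Prkag1, chr15:98831509-98831758, minus strand: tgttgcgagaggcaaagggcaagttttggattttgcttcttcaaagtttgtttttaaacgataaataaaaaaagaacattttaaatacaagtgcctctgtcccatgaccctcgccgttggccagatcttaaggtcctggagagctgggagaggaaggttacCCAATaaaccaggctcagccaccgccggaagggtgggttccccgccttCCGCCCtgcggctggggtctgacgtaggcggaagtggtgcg
Prkab1, chr5:116024429-116024678, minus strand: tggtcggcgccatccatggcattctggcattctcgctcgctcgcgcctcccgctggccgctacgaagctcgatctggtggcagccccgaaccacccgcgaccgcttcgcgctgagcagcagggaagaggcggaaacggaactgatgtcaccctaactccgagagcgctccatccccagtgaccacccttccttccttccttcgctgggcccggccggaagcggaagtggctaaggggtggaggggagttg

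The 3 Prkag2 windows differ from one another. Starts 1 and 3 are rich in G and C (77.2% and 73.2%), start 2 is not (48.4%), against a median of 52.4% over 32851 mouse promoter windows of the same length. Start 3 holds 2 GC boxes and 1 CCAAT box, start 1 a single GC box, and start 2 a pair of overlapping CCAAT boxes on opposite strands. The Prkag1 window (51.6% G and C) holds 1 GC box and 1 CCAAT box, and the Prkab1 window (65.6%) holds neither. All 8 genes matched the table, with 10 windows between them, and 7 of the 10 held a GC box, against 32.7% of all windows. CCAAT was found in 4 of 10, against 33.8% of all. The E-box CACGTG (6.02% of all windows), the cAMP response element TGACGTCA (1.55%) and the ATF4 and C/EBP element TGATGNAAT (0.816%) were found in 0 of 10. The shorter ACGTG, which lies within CACGTG and is the core bound by hypoxia-inducible factors, was found in 1 of 10, the Stk11 window, against 16.6% of all. Such matches describe letters in a window and are no evidence of binding.

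After 12 h of berberine the transcript of the gamma 2 subunit, Prkag2, was lower, a probe set of gamma 1 was slightly lower and a dim probe set of beta 1 was higher than with DMSO. Prkag2 fell by 0.88 on the log2 scale at its most responsive probe set, which is 1.85-fold (adjusted p = 0.000477, limma). The catalytic subunits, beta 2 and both upstream kinases had no called probe set at any time. In all, 4 of the 17 probe sets were called at 12 h (adjusted p under 0.05), 3 lower and 1 higher, in 3 genes. That is 23.5% of the members' probe sets, close to the 23.3% called among all 25053, of which 11.5% were higher and 11.8% lower, so the number of calls does not set these genes apart. The median change of the 17 was 0.06 against 0.01 over all probe sets tested, and their median absolute change was 0.25 against 0.27. At 3 h limma called 0 of 17 (0.998% of all), with 1 at an unadjusted p under 0.05, and at 6 h 0 of 17 (10.5% of all), with 2 at an unadjusted p under 0.05.

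**Figure D1:**
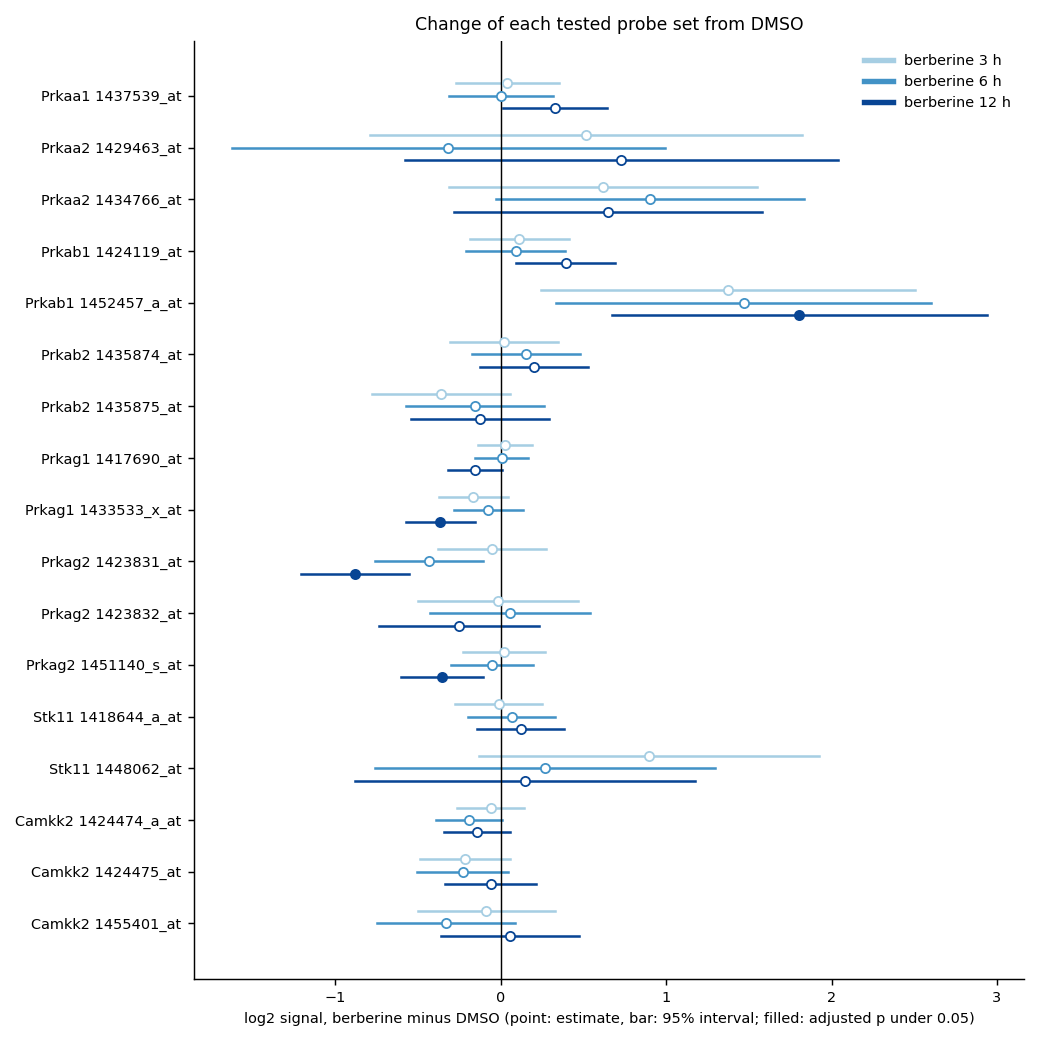
Change of each member probe set that was tested (log2 signal, berberine minus DMSO, n = 3 arrays a group) at 3, 6 and 12 h; bars are 95% confidence intervals. At 12 h Prkag2 1423831_at lies at -0.88, and the widest bars belong to the dim probe sets of Prkaa2, Prkab1 and Stk11.

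The catalytic alpha subunits were called at no time. Prkaa1, which encodes alpha 1, the catalytic subunit usually reported as prevalent in fat cells, had log2 signals of 9.97, 10.30 and 9.44 with DMSO, 9.85, 9.87 and 10.11 at 3 h, 9.92, 9.95 and 9.84 at 6 h, and 10.18, 10.27 and 10.24 at 12 h. The 12 h arrays lay close together near the top of the DMSO range, which was the widest of the 4 groups. The change at 12 h was 0.33 (95% interval 0.02 to 0.64, adjusted p = 0.127, limma). Without DMSO replicate 2, the highest DMSO array, it was 0.53 with an adjusted p of 0.00732. Without DMSO replicate 3, the lowest (9.44), Prkaa1 was not called at 12 h. Its changes at 3 and 6 h were then -0.19 and -0.23 (adjusted p = 0.518 and 0.234), against 0.04 and 0.00 with all arrays. The changes from DMSO thus depended on which DMSO arrays were fitted.

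Prkaa2, which encodes alpha 2, the catalytic subunit prominent in muscle, sat near the threshold. Its probe set 1434766_at had 5.07, 6.07 and 4.89 with DMSO, 5.21, 6.04 and 6.64 at 3 h, 6.09, 6.28 and 6.38 at 6 h, and 5.75, 6.05 and 6.19 at 12 h. The 6 h arrays lay above all DMSO arrays (change 0.90, adjusted p = 0.229), while the 12 h arrays overlapped them. The change at 12 h was 0.65, with an interval from -0.28 to 1.58 (adjusted p = 0.333), which spans a fall and a rise. The second tested probe set, 1429463_at, reached the threshold on 3 of 12 arrays, 2 of them at 12 h and 0 with DMSO. It ranged from 5.30 to 5.99 at 12 h and from 4.32 to 5.36 with DMSO, and was not called (adjusted p = 0.458). With dim values raised to the threshold its change was 0.08. The third, 1429464_at, reached it on 0 arrays, with values of 0.00 to 4.76, and was not tested.

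Beta 1 was the one subunit with a higher call. Prkab1 is read by a bright and a dim probe set, and both had their 12 h arrays above every DMSO array. The bright one, 1424119_at, had 8.69, 8.80 and 8.63 with DMSO, 8.68, 9.00 and 8.78 at 3 h, 8.59, 9.17 and 8.63 at 6 h, and 9.03, 9.11 and 9.16 at 12 h. Its change at 12 h was 0.39 ± 0.14 (SE), or 1.31-fold, with an adjusted p of 0.0541, just outside the threshold for a call. It passed without 6 h replicate 1 (adjusted p = 0.0464) and without 6 h replicate 2 (0.0171), which change the estimate of the spread alone, and under several other settings.

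The dim Prkab1 probe set, 1452457_a_at, had 5.32, 3.73 and 6.37 with DMSO, 6.87, 5.50 and 7.17 at 3 h, 6.49, 6.80 and 6.54 at 6 h, and 7.22, 7.00 and 6.62 at 12 h. With DMSO 1 of 3 arrays reached the threshold and at 12 h all 3 did, with means of 6.95 ± 0.31 at 12 h and 5.14 ± 1.33 with DMSO (SD, n = 3 each). Setting values under the threshold to the threshold, the 12 h level was at least 1.97-fold higher (a change of 0.98, adjusted p = 0.0332 in a limma fit on the values so raised). The fit on the values as deposited gave a change of 1.81 (adjusted p = 0.0212), which rests on the low DMSO arrays: it was 1.10 (adjusted p = 0.0988) without DMSO replicate 2 and 2.42 without DMSO replicate 3, the one DMSO array that reached the threshold. The call also ended without 12 h replicate 1 (adjusted p = 0.0724) and without 12 h replicate 2 (0.0596). At 3 and 6 h the changes were 1.37 and 1.47 (adjusted p = 0.298 and 0.0947), or 0.63 and 0.64 with dim values raised to the threshold.

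Prkab2, which encodes beta 2, the beta form typical of muscle, showed no call. Probe set 1435874_at had 8.10, 7.83 and 7.95 with DMSO, 7.74, 7.99 and 8.21 at 3 h, 7.99, 8.20 and 8.15 at 6 h, and 8.20, 7.95 and 8.33 at 12 h. All 4 groups overlapped, and the change at 12 h was 0.20 (interval -0.13 to 0.53, adjusted p = 0.405). Probe set 1435875_at ranged from 7.57 to 8.13 at 12 h and from 7.79 to 8.40 with DMSO, a change of -0.12 (interval -0.54 to 0.29, adjusted p = 0.723). The third, 1442001_at, reached the threshold on 2 arrays and was not tested.

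Gamma 2 held the one member probe set called at 12 h under every setting that tested it. Prkag2 probe set 1423831_at had log2 signals of 8.63, 8.50 and 8.59 with DMSO, 8.73, 8.30 and 8.54 at 3 h, 8.26, 8.30 and 7.86 at 6 h, and 7.62, 7.55 and 7.89 at 12 h. The 12 h arrays lay below all DMSO and all 3 h arrays, and the 6 h arrays lay below all DMSO arrays. The mean was 7.69 ± 0.18 at 12 h and 8.57 ± 0.07 with DMSO (SD, n = 3 each), a change of -0.88 (interval -1.21 to -0.56). By mean, the groups ran from DMSO (8.57) through 3 h (8.52) and 6 h (8.14) to 12 h (7.69). Neighbours in that order were not told apart after adjustment: 3 h against DMSO -0.05 (adjusted p = 0.945), 6 h against 3 h -0.39 (0.271) and 12 h against 6 h -0.45 (0.130). At 6 h the change from DMSO was -0.44, with an adjusted p of 0.0852. The fall at 12 h was called under all 20 alternative settings that gave a value, from -0.99 to -0.81.

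The steps between berberine times, which use no DMSO array in the difference, gave 2 calls among the members, both in Prkag2 and both for 12 h against 3 h, where 13.7% of all probe sets were called. Probe set 1423831_at was lower at 12 h by -0.83 (adjusted p = 0.00145). From 3 to 6 h (1.43% of all) and from 6 to 12 h (3.78%) limma called 0 of 17, with 1 and 5 at an unadjusted p under 0.05. Over the 4 groups together, the moderated F test called 1 of 17 probe sets, 1423831_at (adjusted p = 0.00141), against 19.4% of all.

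The other tested Prkag2 probe sets moved less. Probe set 1451140_s_at had 8.43, 8.52 and 8.70 with DMSO, 8.47, 8.61 and 8.62 at 3 h, 8.47, 8.43 and 8.60 at 6 h, and 8.18, 8.13 and 8.26 at 12 h, below every array of the other groups. It was 1.28-fold lower at 12 h (-0.36 ± 0.12 SE, adjusted p = 0.0366) and lower than at 3 h by -0.37 (adjusted p = 0.0434). Both calls were fragile. The first ended without DMSO replicate 2 (adjusted p = 0.0659), DMSO replicate 3 (0.149), 12 h replicate 1 (0.0835) or 12 h replicate 2 (0.106). The second ended without DMSO replicate 2, any 3 h array or any 12 h array (adjusted p 0.0509 to 0.129). Probe set 1423832_at ranged from 6.71 to 6.92 at 12 h and from 6.88 to 7.20 with DMSO, and its change of -0.25 was not called (interval -0.74 to 0.23, adjusted p = 0.489).

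These 3 probe sets share one and the same expressed sequence in the annotation, which does not settle which transcripts each of them reads. Their fitted changes at 12 h were -0.88, -0.36 and -0.25, and their differences within each array were looked at after these values were seen. Within each array, 1423831_at minus 1451140_s_at was -0.58 to -0.37 at 12 h and -0.11 to 0.20 with DMSO, a change of -0.53. The difference between 1423831_at and 1423832_at was 0.83 to 0.98 at 12 h and 1.43 to 1.71 with DMSO, a change of -0.63. For both, the ranges did not overlap. The exact two-sided permutation test gave p = 0.1, the smallest that 3 arrays against 3 allow, so it cannot decide whether the changes are unequal. The remaining difference, 1423832_at minus 1451140_s_at, changed by 0.10 (exact permutation p = 0.7). The fourth probe set, 1431263_at, reached the threshold on 0 arrays (1.95 to 5.75).

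Gamma 1 had a small fall at 1 of its 2 probe sets. Prkag1 1433533_x_at had 9.43, 9.28 and 9.39 with DMSO, 9.33, 9.18 and 9.08 at 3 h, 9.29, 9.40 and 9.18 at 6 h, and 9.04, 9.02 and 8.93 at 12 h. The 12 h arrays lay below all others, 1.29-fold lower than with DMSO (-0.36 ± 0.10 SE, adjusted p = 0.0128, or 0.0562 without DMSO replicate 1). The suffix _x_at marks probes that may also bind transcripts of other genes. The second probe set, 1417690_at, had 10.76, 10.63 and 10.75 with DMSO, 10.77, 10.79 and 10.65 at 3 h, 10.80, 10.77 and 10.59 at 6 h, and 10.56, 10.51 and 10.61 at 12 h. Its 12 h arrays also lay below those with DMSO, but by -0.16 (interval -0.32 to 0.01), which was not called (adjusted p = 0.166).

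**Figure D2:**
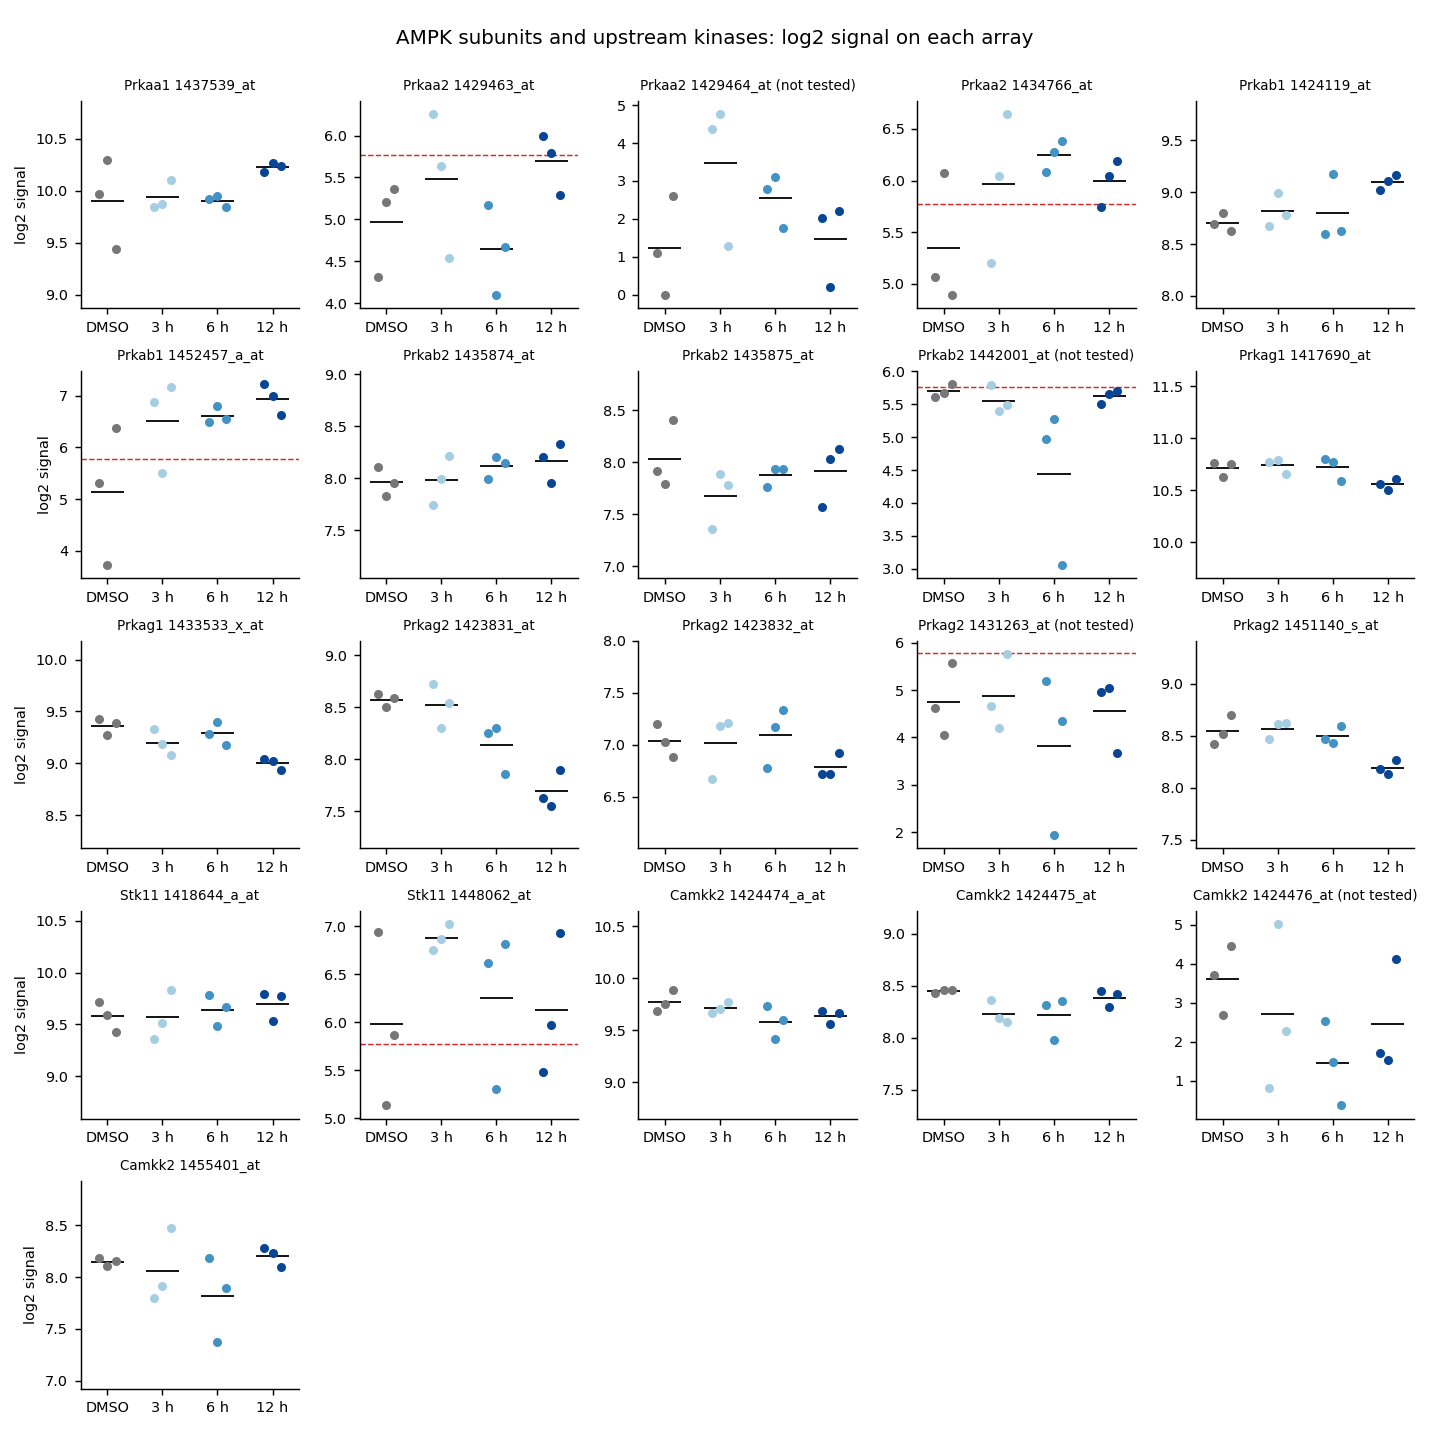
Log2 signal of all 21 member probe sets on each of the 12 arrays (4 panels are marked as not tested, and the scale differs between panels), in the order DMSO, 3, 6 and 12 h of berberine; points are arrays, horizontal marks are group means and the dashed line, where it falls within a panel, is the detection threshold of 5.77. Prkag2 1423831_at steps down to 7.55 to 7.89 at 12 h, and the 2 tested probe sets of Prkaa2 lie on both sides of the threshold.

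The upstream kinases were called at no time. Stk11 encodes LKB1, the main kinase of the AMPK activation loop. Its bright probe set, 1418644_a_at, had 9.72, 9.59 and 9.43 with DMSO, 9.36, 9.52 and 9.83 at 3 h, 9.78, 9.48 and 9.66 at 6 h, and 9.80, 9.53 and 9.77 at 12 h. All groups overlapped, with a change of 0.12 at 12 h (interval -0.14 to 0.39, adjusted p = 0.550). The dim 1448062_at reached the threshold on 9 of 12 arrays, and its change of 0.15 at 12 h had an interval from -0.88 to 1.17.

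Camkk2 encodes the calcium-dependent kinase of AMPK. Probe set 1424475_at had 8.43, 8.46 and 8.46 with DMSO, 8.36, 8.18 and 8.15 at 3 h, 8.32, 7.98 and 8.35 at 6 h, and 8.45, 8.29 and 8.42 at 12 h. The 3 h and 6 h arrays lay below the tight DMSO group, by -0.22 (adjusted p = 0.546) and -0.23 (adjusted p = 0.308), and the 12 h arrays overlapped it. Probe set 1424474_a_at ranged from 9.56 to 9.68 at 12 h and from 9.68 to 9.89 with DMSO, a change of -0.14 (interval -0.34 to 0.06, adjusted p = 0.326). Probe set 1455401_at changed by 0.06 at 12 h (adjusted p = 0.887). The fourth, 1424476_at, reached the threshold on 0 arrays and was not tested. Taking all members at 12 h, 7 of 17 probe sets had the 3 berberine arrays on one side of the 3 DMSO arrays, 2 above and 5 below, against 36.2% of all probe sets tested.

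**Figure D3:**
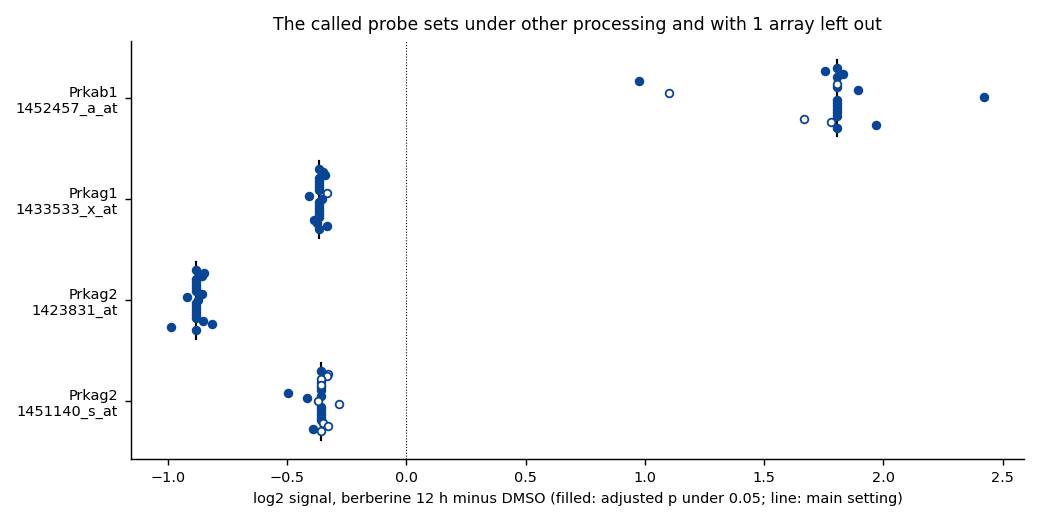
Log2 change at 12 h (berberine minus DMSO) of the 4 called member probe sets under each alternative processing setting; filled points are past an adjusted p of 0.05 and open points are not. Prkag2 1423831_at stays between -0.99 and -0.81 with every point filled, while Prkab1 1452457_a_at spreads from 0.98 to 2.42.

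The genes whose 3 changes from DMSO lay nearest to those of Prkag2 1423831_at, among 2718 other genes called by the F test, were Adamts9, a secreted metalloprotease, Aldh3a1, an aldehyde dehydrogenase, and Dhx9, an RNA helicase. Their root mean square differences over the 3 contrasts were 0.02, 0.04 and 0.04 on the log2 scale. The SE of each change of Prkag2 1423831_at was 0.15, larger than these differences, so which genes rank nearest is uncertain. At 12 h the 3 named genes changed by -0.88, -0.89 and -0.89.

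Around the members, 57 of 68 listed genes of the AMPK pathway could be tested, each by its brightest probe set. At 12 h 18 were called (31.6%), 4 higher and 14 lower, where 26.5% of all 12136 genes were. At 6 h 14 were called (24.6%, against 12.4% of all genes) and at 3 h 3 (5.26%, against 1.34%). Among the partners of LKB1, the STRAD pseudokinases and MO25 proteins that hold it in its active form, 0 of 4 were called by limma at 12 h from their brightest probe set, with a median change of 0.13. A second probe set of Cab39 was called higher. In all lists together, 5 genes not called at 12 h by the brightest probe set had another that was (Cab39, Flcn and Gfpt1 higher, Sesn1 and Eef2k lower), and these are not in the counts; they were picked out after their values were seen. Map3k7, a kinase reported to act on AMPK, was not called (0.09), and neither was Prkag3, the gamma form of skeletal muscle, whose mean lay under the threshold in every group (5.34 ± 0.69 at 12 h and 4.35 ± 2.21 with DMSO).

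**Figure D4:**
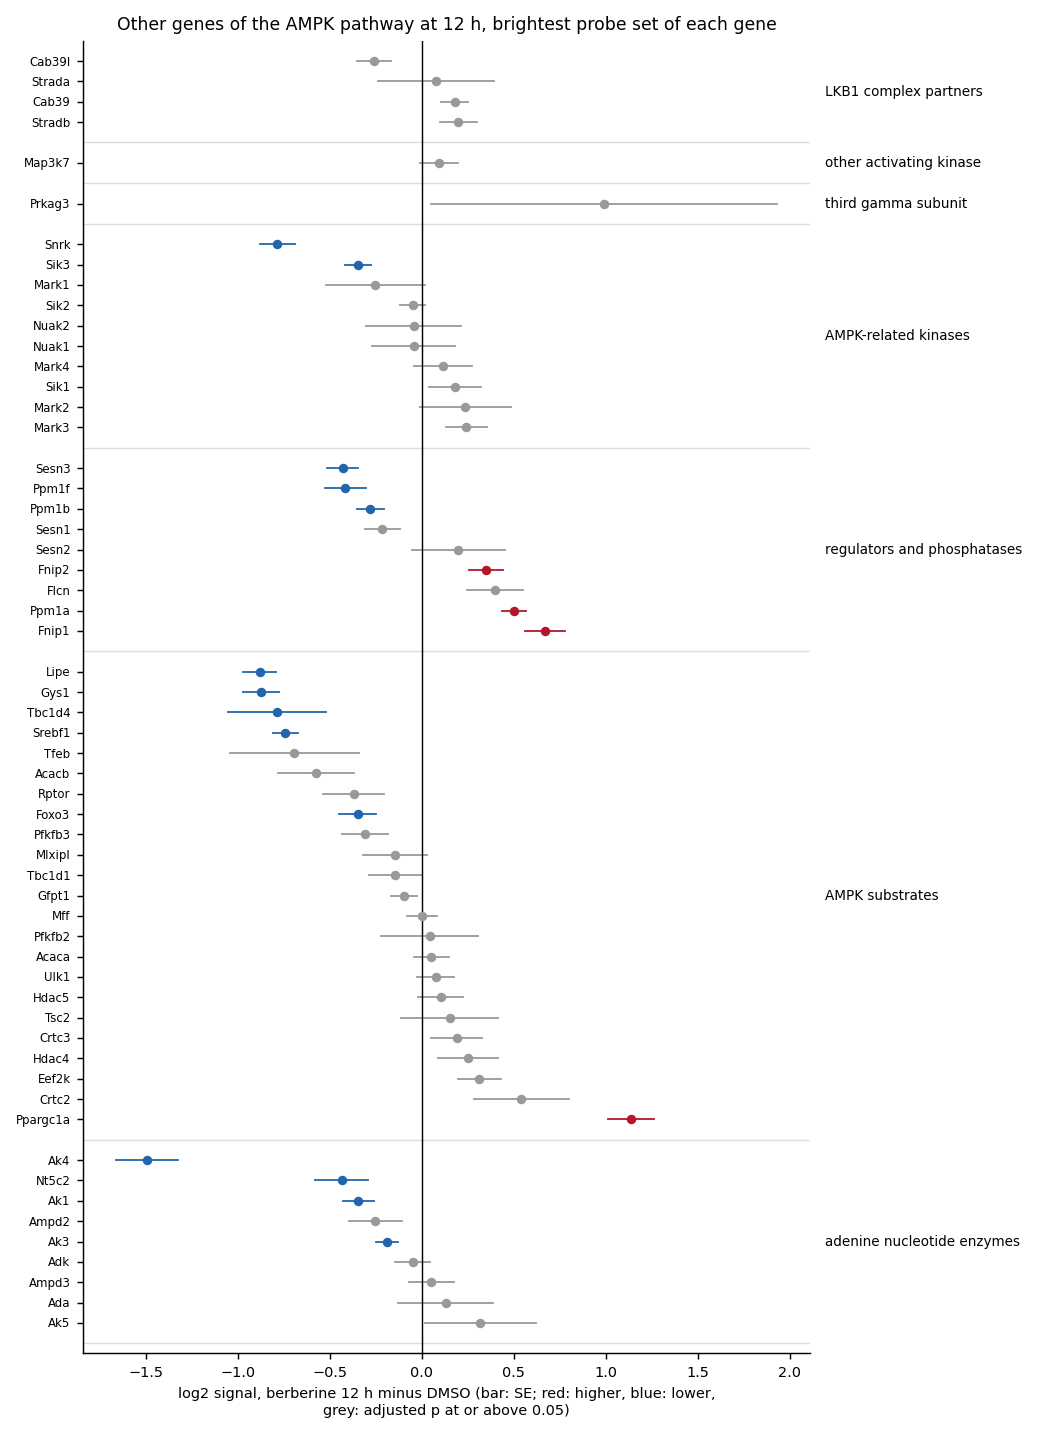
Change at 12 h (log2 signal, berberine minus DMSO) of 57 other genes of the AMPK pathway, by list, from the brightest probe set of each; bars are standard errors, red is called higher, blue called lower and grey not called. Of 23 substrates, 1 is red (Ppargc1a at 1.14) and 5 are blue (26.1% called, against 26.5% of all genes). Prkag3, with the widest bar, lay under the detection threshold on average in every group.

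Of the AMPK-related kinases, which LKB1 also activates, 2 of 10 were called at 12 h (20%, against 26.5% of all genes). Both were lower, and the median over the list was -0.04. Snrk, the sucrose non-fermenting related kinase, averaged 10.66 ± 0.12 at 12 h and 11.44 ± 0.19 with DMSO, a fall of 1.72-fold (adjusted p = 1.12e-05), and was already lower at 6 h (-0.67). Sik3, a salt-inducible kinase, was lower by -0.35 (adjusted p = 0.00191) at 1 of its 3 tested probe sets, and the mean of them changed by -0.02 (adjusted p = 0.858).

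The proteins that bind AMPK or take off its activating phosphate had the largest share of calls among the lists. At 12 h 6 of 9 were called (66.7%, against 26.5% of all genes), 3 higher and 3 lower, with a median of 0.20. Ppm1b, counted as lower, also had a probe set called higher. Fnip1, a folliculin partner that binds AMPK, averaged 11.55 ± 0.14 at 12 h and 10.88 ± 0.25 with DMSO, and rose 1.59-fold (adjusted p = 0.000237), with all 3 probe sets called. Ppm1a, a protein phosphatase that can act on AMPK, rose 1.42-fold (adjusted p = 2.88e-05), with 6 of 7 probe sets called. Flcn, folliculin itself, was higher early: 9.61 ± 0.31 at 3 h and 8.78 ± 0.17 with DMSO, or 1.79-fold (adjusted p = 0.0109), with both tested probe sets called. The call of the first ended without DMSO replicate 1 (0.0665), without 3 h replicate 3 (0.0618) and without the intensity trend (0.118). At 12 h the change at this probe set was 0.40 (adjusted p = 0.0716), while the other tested one was called higher. The first passed without DMSO replicate 2 (0.0435) and without 3 h replicate 3 (0.0425). Sesn2, a stress-induced sestrin that binds AMPK, was 1.98-fold higher at 6 h at 1 of its 2 probe sets (adjusted p = 0.0183) and changed by 0.20 at 12 h (adjusted p = 0.640). The 6 h call of Sesn2 ended without DMSO replicate 1 or 2, or without 6 h replicate 1 or 3 (adjusted p 0.0560 to 0.0946). It also ended without the intensity trend (0.0934).

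Of the transcripts of AMPK substrates, 6 of 23 were called at 12 h, 1 higher and 5 lower, with a median of -0.10. That is 26.1%, close to the 26.5% of all genes, so the number of calls at 12 h does not set the substrates apart. At 6 h the share was larger, with 1 called higher and 6 lower (30.4%, against 12.4% of all genes). At 3 h 1 was called, higher (4.35%, against 1.34%). Ppargc1a, the coactivator PGC-1alpha of mitochondrial genes, was higher at each time, by 0.73 at 3 h, 0.98 at 6 h and 1.14 at 12 h, where it reached 2.20-fold (adjusted p = 4.75e-06). Of its 5 probe sets, 1 was called at 3 h, 5 at 6 h and 4 at 12 h, and the 3 h call ended without the intensity trend (adjusted p = 0.0673). Lipe, hormone-sensitive lipase, averaged 10.97 ± 0.11 at 12 h and 11.85 ± 0.03 with DMSO, 1.84-fold lower (adjusted p = 1.78e-06). Gys1, glycogen synthase of muscle and fat, was 1.83-fold lower (adjusted p = 5.55e-06), with 1 of its 2 probe sets called at 12 h and both at 6 h. Tbc1d4, a regulator of glucose transporter traffic, was lower by -0.79 at 1 of its 2 probe sets (adjusted p = 0.0425), but by -0.35 without DMSO replicate 3 (0.217). That call also ended without DMSO replicate 2, 3 h replicate 3, 6 h replicate 3 or any 12 h array, with adjusted p between 0.0501 and 0.113. Without the intensity trend its adjusted p was 0.144.

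Enzymes that set the pool of adenine nucleotides, the molecules gamma senses, gave 4 calls of 9 at 12 h (44.4%, against 26.5% of all genes). All 4 were lower, and the median of the list was -0.19. Ak4, a mitochondrial adenylate kinase, was lower by -0.84 at 3 h, -1.59 at 6 h and -1.49 at 12 h (adjusted p = 6.51e-06 at 12 h), with all 3 tested probe sets called at 12 h. Its 3 h call (adjusted p = 0.0192) ended without DMSO replicate 1 or 3, or 3 h replicate 2 or 3 (adjusted p 0.0549 to 0.127). Ak1, the cytosolic adenylate kinase, was 1.27-fold lower at 12 h (adjusted p = 0.00627). Nt5c2, a cytosolic nucleotidase with 3 of 4 probe sets called, was lower by -0.43 at the brightest (adjusted p = 0.0364), a call that ended without DMSO replicate 1 or 3 or any 12 h array (0.0703 to 0.126). Ak3, an adenylate kinase of the mitochondrial matrix, was lower by -0.19 at 1 of its 3 probe sets (adjusted p = 0.0347), a call that ended without any 1 of the DMSO arrays or without 12 h replicate 1 or 2 (0.0536 to 0.154). The calls of Ak4 at 3 h and of Nt5c2 and Ak3 at 12 h also ended without the intensity trend (0.132, 0.0812 and 0.0882).

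As checks on the samples, 7 of 8 matched adipocyte markers were at or above the threshold on all 12 arrays. So were 8 of 8 preadipocyte and fibroblast, 2 of 6 macrophage, 0 of 4 endothelial and 1 of 5 skeletal muscle markers. Under it on all arrays were 2 endothelial, 2 skeletal muscle and 1 macrophage marker. At 12 h 4 of 8 adipocyte markers were called lower, Lep, Cidec, Cebpa and Retn. Not called were Adipoq (0.25), Fabp4 (0.21), Pparg (-0.08) and Slc2a4 (-0.31). The log2 of the summed signal of all 8 was 16.96 to 17.11 at 12 h and 16.93 to 17.28 with DMSO. Adipoq and Fabp4, the brightest of the 8, weigh most in that sum. The 8 fibroblast markers, with 3 called higher and 2 lower, summed to 16.72 to 16.82 at 12 h and 16.48 to 16.68 with DMSO. The 6 macrophage markers summed to 9.95 to 10.22 at 12 h and 9.70 to 9.96 with DMSO. Of these 6, Cd14 was the brightest and the only 1 called (0.38 higher, adjusted p = 0.0104, limma). The part of these shifts in the changes of Prkag2 and the other genes was not tested, and in bulk samples fewer cells of a type and less RNA per cell cannot be told apart. The 3′-to-5′ difference of the actin control was 1.51 to 1.58 at 12 h and 1.56 to 1.72 with DMSO, and that of Gapdh was -0.16 to -0.04 and -0.15 to 0.03. The share of probe sets that reached the threshold was 47.9% to 51.6% per array, and with 3 arrays a group their number limits the precision.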

How the data were processed

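The deposited table holds log2 signals of 45101 probe sets (64 controls) on 12 arrays. The authors made them with MAS5, per the submitters' processing notes, which give no version; the values show 1 scaling factor per array, and dim log2 values of this kind are noisy. Scanner files and detection calls were not used here.

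The detection threshold was the median log2 value of the 45037 probe sets that are no controls, 5.77 (a linear signal of 54.6). Probe sets at or above it on at least 3 of 12 arrays, 25053, were fitted by group means over all arrays (limma 3.58.1, R 4.3.3, 8 residual degrees of freedom). The moderated tests were two-sided and used an intensity trend, and p-values were adjusted over all 25053 by Benjamini-Hochberg and called under 0.05. A member gene was called where at least 1 of its probe sets was. Other pathway genes were read and called from the same fit by the probe set with the highest mean alone, one for each of 12136 genes. Fold changes are ratios of geometric means, SE is limma's, and intervals are 95%. For bounds, lower values were first set to the threshold.

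Symbols came from the platform annotation: 34945 probe sets had 1 symbol, 932 several and 9160 none. Every probe set of the 8 genes is given. From each pathway list up to 4 called genes with the largest change at any time were named, and for the gene called by the F test the 3 genes with the nearest changes. The genes, lists and tests were chosen with earlier results of these data known. On data simulated for 12 h against DMSO (25053 probe sets, 200 changed, 10 runs), 31.2% of changes of 0.5, 58.1% of changes of 1 and 77.1% of changes of 2 on the log2 scale were recovered. In the data 5847 probe sets were called at 12 h. The adjustment depends on how many change, so these shares do not give the recovery in the data. Replicate numbers in the labels were checked for pairing. Alternatives were other scalings, filters, the intensity trend, the unit of testing, the samples fitted, a replicate block and each array left out. Promoters came from RefSeq (GRCm38.p6) and figures from Python 3.11.15 with matplotlib 3.10.9.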

Additional observations from a re-analysis of the deposited data

Results flagged for a closer look

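The change of Prkag2 from DMSO differed between times, tested directly as 12 h against 3 h. Probe set 1423831_at was lower at 12 h than at 3 h by -0.83 on the log2 scale (7.62, 7.55 and 7.89 at 12 h, 8.73, 8.30 and 8.54 at 3 h, adjusted p = 0.00145 by limma), with every 12 h array below every 3 h array. Probe set 1451140_s_at was lower by -0.37 (8.18, 8.13 and 8.26 at 12 h, 8.47, 8.61 and 8.62 at 3 h, adjusted p = 0.0434), again with every 12 h array below every 3 h array. Time in culture may also differ between these groups, and its part was not tested. Groups of 3 arrays were not searched for outlying samples.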

How the results depend on the processing

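The number of member genes called at 12 h was 3, and between 2 and 3 under every alternative run, but the genes were not always the same. Without DMSO replicate 2 Prkaa1 gained a call (adjusted p = 0.00732, limma) and the dim Prkab1 probe set lost its call (0.0988). The call at 12 h remained under all 20 alternatives for Prkag2 1423831_at (adjusted p 0.000292 to 0.00379), under 19 of 20 for Prkag1 1433533_x_at (-0.41 to -0.33), under 15 of 19 for Prkab1 1452457_a_at and under 13 of 22 for Prkag2 1451140_s_at. The last ended with quantile normalization (adjusted p = 0.0527), median centring (0.0537), no filter (0.0685), dim values raised to the threshold (0.0549) and only the arrays of the groups compared (0.0741). Without the intensity trend Prkab1 1452457_a_at was no longer called (0.0727). The bright Prkab1 probe set, uncalled at 0.0541, passed with median centring (0.0448), with all 12 arrays required at the threshold (0.0446), with 1 probe set per gene (0.0437), with the mean of probe sets (1.10, 0.00826), with the replicate block (0.0307) and with only the arrays of the 2 groups (0.0227).

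At 6 h member genes called were 0, and 0 to 1 with arrays left out, the 1 without DMSO replicate 3, from the dim Prkab1 probe set, whose 2 remaining DMSO arrays lay under the threshold. By the F test 1 gene was called, against 2 with all 12 arrays at the threshold, 0 with 1 probe set per gene (for Prkag2 that is 1451140_s_at), 2 with the mean of probe sets, and 1 to 2 with arrays left out. The 2 calls between berberine times became 1 under quantile normalization, median centring, no filter, dim values raised, 1 probe set per gene and the mean of probe sets, and 1 to 2 with arrays left out. Of 1621 alternative values of single probe sets, 0 reversed a called direction, 44 changed sign uncalled, 89 lost and 15 gained a call. Over all probe sets, calls at 3 h were 250, but 50 without the trend, 107 without DMSO replicate 1, 118, 110 and 135 without 3 h replicates 1, 2 and 3, and 371 without DMSO replicate 3. At 6 h they were 2627, but 1434 without the trend, 1544 without DMSO replicate 1 and 1635 without 6 h replicate 2. At 12 h they were 5847, and by the F test 4861, or 3128 without the trend. Among 12136 genes, calls at 3, 6 and 12 h and by the F test were 114, 1099, 2760 and 2160 with the mean of probe sets, and 231, 1726, 3426 and 3045 with 1 probe set per gene. The causes were not tested.

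Over all probe sets, arrays with the same replicate number did not deviate together (correlations -0.09 to 0.05, against -0.07 to 0.07 for other numbers). No pairing by number was seen, but with 3 arrays a group this check cannot exclude one. With the replicate block member genes called were 0, 0 and 3 at 3, 6 and 12 h and 1 by the F test, and 5731 probe sets were called at 12 h. Signals near the threshold limit what can be said of Prkaa2, the dim probe sets of Prkab1 and Stk11, and the 4 that were not tested.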
